A study of Mus musculus with 563 samples.

Results

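Mitochondrial ribosomal proteins are encoded in the nucleus, made in the cytosol and imported into mitochondria. The genes described here are those whose symbols are Mrpl or Mrps followed by a number and at most 1 letter, with pseudogenes left out. They number 78 among 46041 nuclear gene entries. By symbol alone, 49 (Mrpl) are counted here as large subunit and 29 (Mrps) as small subunit genes. A symbol does not always match the place of the protein. Mrps18a and Mrps36, described below, are examples and may not be the only ones, and every gene was still counted by symbol. All 78 were found in both deposited count tables and all are annotated as protein-coding.

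The study measured single haematopoietic stem cells (HSCs) from mouse bone marrow by Smart-seq2, a full-length method that reads 1 sorted cell per well. All cells carry the Gfp-Lc3 transgene, which joins green fluorescent protein to the autophagosome protein LC3, and all were isolated at steady state, so no group lacks the transgene. Young cells form 1 group, and cells of old mice form 3 more, which the labels call LO, MID and HI. They give no exact age, name no animal and do not say what LO, MID and HI rank, so each group is treated as 1 sample and no test between groups was possible.

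The mitochondrial ribosome translates the few proteins that mitochondrial DNA encodes, which are core parts of the respiratory chain and the ATP synthase. Its small subunit binds the messenger RNA and decodes it, and its large subunit joins the amino acids and releases the chain through a tunnel at the inner membrane. Its ribosomal RNAs come from mitochondrial DNA, while its proteins come from nuclear genes, so building it draws on both genomes. Resting HSCs are known to rely less on respiration than their dividing progeny.

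Of 563 cells, 533 passed limits on depth and quality: 63 young, 65 LO, 68 MID and 68 HI cells of the first table, and 71, 71, 66 and 61 of the second. Kept cells had 50339 to 1064879 reads in nuclear genes, and 709799 reads in all lay in the 78 genes, which is 0.378 to 0.458% of nuclear reads in the 8 sums of a group and a table. The 10 HSC markers, among them Procr, Hlf and Mecom, summed to 3172 to 4080.2 counts per 1000000 nuclear reads (CPM) and none was at 0 in any group. Markers of mature cells summed to at most 376 CPM, reached by the megakaryocyte list in LO cells of the second table, and the other lists summed to 0.414 to 87.8 CPM. Young cells with 20 or more reads of Xist, the RNA that female cells make to silence 1 X chromosome, were 1 of 63 in the first table and 71 of 71 in the second, against 0 to 4 cells per old group and table. The sex of the young cells and their age therefore cannot be told apart in the second table, and both tables are given throughout.

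Promoters of these genes were searched for 3 motifs known from genes of mitochondrial proteins and for the TATA box, to show what start regions the group shares apart from its name. RefSeq promoters on GRCm38.p6, from 250 bases before to 50 bases after a start, were matched by symbol for 69 of the 78 genes. GCGCN followed by TGCGC, a binding motif of the activator NRF1 in which N is any base, was found on either strand in 13 of 69 genes (18.8%), against 7.50% of 16338 protein-coding genes. CCGGAAGT, an ETS-family motif that GABP can bind, was found in 12 (17.4%) against 5.99%. AAGATGGCG, a YY1 motif, was found in 8 (11.6%) against 2.26%, and 6 of these 8 matches lay after the start. TATAAA was found in 5 genes (7.25%) against 14.1%. Over all 32851 promoters of the table, the shares were 4.603%, 3.89%, 1.40% and 13.6%. The genes' promoters held a median of 58.7% G and C, against 52.7% over all promoters of the table. A match is a description of letters and not of binding.

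The 95 bases before the RefSeq start are shown for 5 genes whose window holds an NRF1 or ETS motif and whose levels are described below, in capitals where the motif lies on either strand. Mrpl12 is a protein of the stalk that recruits translation factors, Mrpl17 and Mrpl45 lie at the exit of the peptide tunnel, and Mrpl43 and Mrps27 were among the 3 genes with the largest deficit in old cells. The windows of Mrpl12, Mrpl45 and Mrps27 lie on the plus strand at chr11:120484542-120484636, chr11:97315621-97315715 and chr13:99344691-99344785. Those of Mrpl17 and Mrpl43 lie on the minus strand at chr7:105811088-105811182 and chr19:45006443-45006537. Capitals mark the NRF1 motif in the first 3 and the ETS motif in the last 2.
Mrpl12: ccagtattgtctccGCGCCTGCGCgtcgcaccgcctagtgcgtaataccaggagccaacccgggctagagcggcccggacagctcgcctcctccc
Mrpl17: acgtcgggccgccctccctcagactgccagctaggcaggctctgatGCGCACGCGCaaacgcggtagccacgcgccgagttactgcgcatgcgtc
Mrpl45: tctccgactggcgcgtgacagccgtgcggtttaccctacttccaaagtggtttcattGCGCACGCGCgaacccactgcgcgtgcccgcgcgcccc
Mrpl43: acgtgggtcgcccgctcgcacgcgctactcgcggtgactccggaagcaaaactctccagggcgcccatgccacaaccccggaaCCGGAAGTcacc
Mrps27: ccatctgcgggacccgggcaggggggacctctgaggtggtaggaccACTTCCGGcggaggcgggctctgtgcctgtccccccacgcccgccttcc
The windows of Mrpl12, Mrpl17 and Mrpl45 match the NRF1 motif, Mrpl12 as spelled and the other windows on the opposite strand, and those of Mrpl43 and Mrps27 hold the ETS motif on opposite strands. Among genes past the level filter defined below, the 13 with and the 53 without the NRF1 motif had median levels of 37.04 and 37.4 CPM per kilobase and median HI minus LO differences of 0.27 and 0.24.

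Many of these genes share a start region with a gene on the other strand. In the annotation, 23 of 78 (29.5%) had a protein-coding gene on the opposite strand that starts within 1000 bases upstream or overlaps by up to 300 bases, against 8.62% of 21583 protein-coding genes. Mrpl49 and Fau, which encodes a cytosolic ribosomal protein, start 59 bases apart. Mrps12 and Sars2, the mitochondrial seryl-tRNA synthetase gene, start 172 bases apart, and the Mrps18c and Mrps34 starts lie 29 bases from those of Helq and Eme2. The RefSeq starts of Mrps11 and Mrpl46 lie back to back on chromosome 7 with 41 bases between them, so 1 small subunit and 1 large subunit gene share a start region. The pair is not among the 23, since their outermost annotated starts overlap by more than 300 bases.

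The genes were read at very unlike levels. Levels were set per kilobase of the principal transcript and averaged over the 8 sums. They ranged from 0.369 to 176 CPM per kilobase with a median of 36.9 over all 78, against 16.9 over all genes past the level filter. Without division by length the medians were close, at 52.5 and 49.04 CPM. The median was 39.3 for large and 26.4 for small subunit genes. The highest were Mrpl52 at 176, Mrpl33 at 139.9, Mrpl28 at 111.97, Mrpl34 at 108.9 and Mrpl54 at 80.6 CPM per kilobase, all of the large subunit. The lowest were Mrpl48 at 7.21, Mrpl32 at 6.90, Mrpl23 at 5.51, Mrps36 at 4.59 and Mrpl53 at 0.369. These positions depend on the length used, since over all annotated exon bases Mrpl33 stood at 9.13 and Mrpl34 at 108.9.

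**Figure D1:**
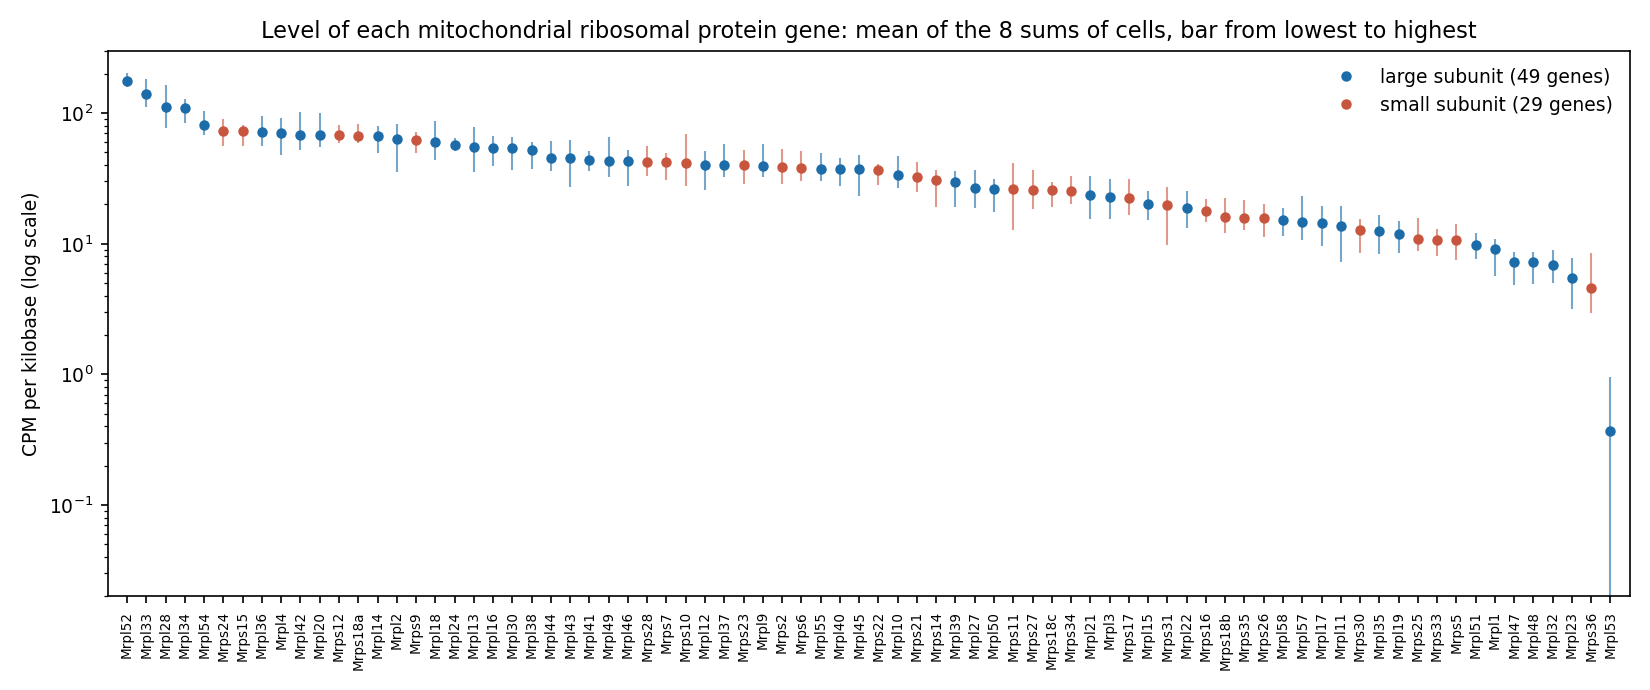
Mean level of each of the 78 genes over the 8 sums (point) with the lowest and highest sum (bar), in CPM per kilobase of the principal transcript on a log axis. Most genes lie between 15.9 and 54.2 (the quartiles), and the bar of Mrpl53, which had no read in 1 sum, runs off the axis.

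In this order, 76 of 77 neighbouring pairs had overlapping ranges over the 8 sums. Mrpl52 had young sums of 66.2 and 72.3 CPM, LO sums of 72.4 and 84.2, MID sums of 67.4 and 69.3 and HI sums of 77.98 and 77.4, first table first. Its young and MID sums of the first table were its lowest. Mrpl34 had young sums of 66.3 and 78.4 CPM, LO sums of 50.8 and 61.8, MID sums of 66.01 and 68.5 and HI sums of 67.8 and 69.2, lowest in both LO sums. Mrpl52 was read in 90.6% and Mrpl33 in 87.8% of kept cells, while Mrpl47, at the tunnel exit, was read in 38.1%, the lowest share among genes past the filter.

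The level filter asked that a gene average 10 CPM or more in the 8 sums and be read in 10% or more of the kept cells, and 75 of the 78 genes and 10721 nuclear genes passed it. The 3 left out were Mrpl23 at 3.81 CPM, Mrps36 at 3.21 and Mrpl53 at 0.256 CPM. Mrps36 encodes a subunit of the 2-oxoglutarate dehydrogenase complex despite its symbol. Mrpl53 shares 87.97% of its exon bases with another coding gene model, Gm42688, on the same strand. Ambiguous reads were kept apart from the genes (3.80% and 4.26% of reads). The exact rule for reads in shared exons is not known. Differences between groups are on the scale of log2(CPM + 1), averaged over the tables, with the first and second table in brackets. A gene is counted as higher or lower in both tables by its sign alone, and as changed in size where both tables passed a 1.5-fold difference in the same direction.

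The summed level of the genes was lowest in LO and highest in HI cells. Young cells had 4077 and 4242 CPM, LO cells 3724 and 3834, MID cells 3774 and 4367, and HI cells 4172 and 4811 CPM in the first and second table. LO was lowest and HI highest within each table, though per spike-in read MID lay just under LO in the first table, and the MID sum was next to LO in the first table and above young in the second. The 83 cytosolic ribosomal protein genes, which build the ribosomes outside mitochondria, had 15711 to 17392 CPM in LO and 15878 to 16765 CPM in HI cells. The mitochondrial genes thus stood at 237 and 220.5 per 1000 cytosolic ribosomal protein CPM in LO and at 263 and 287 in HI cells.

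**Figure D2:**
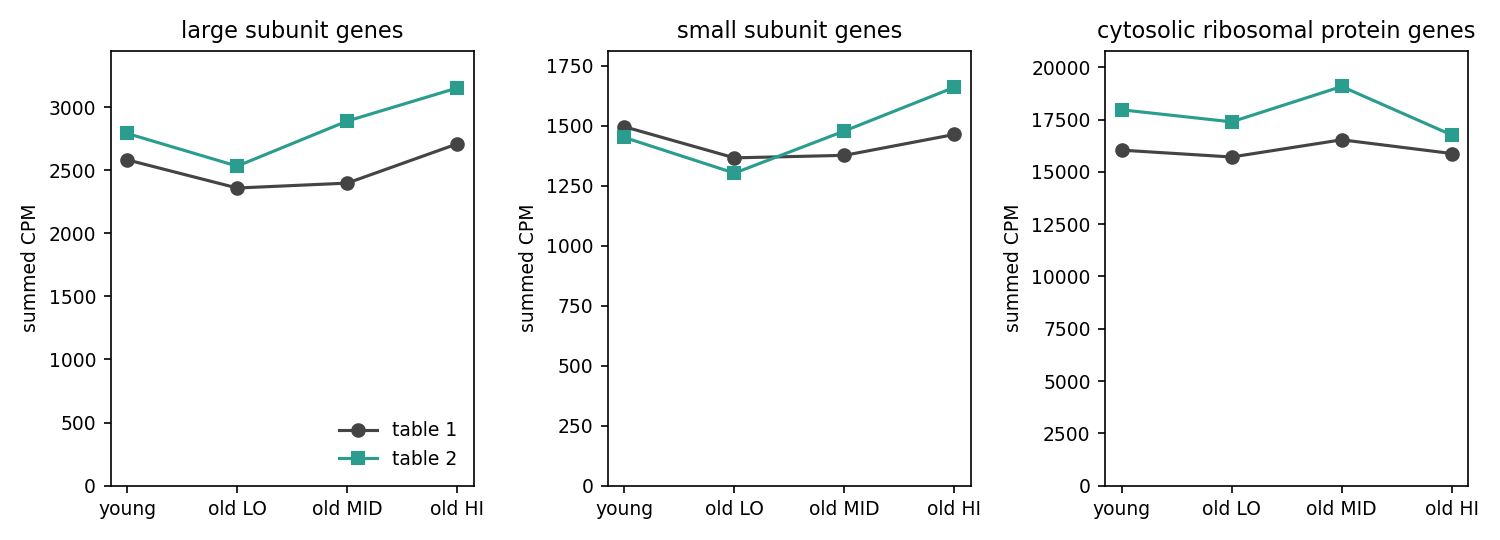
Summed CPM of large subunit, small subunit and cytosolic ribosomal protein genes (vertical axes from 0, not alike between panels) in the 4 groups, with 1 point per group and table; lines only join points of a table. LO is the lowest and HI the highest group for large subunit genes in each table, HI is highest for small subunit genes in the second table alone (1464 CPM against 1496 in young cells in the first), and the cytosolic genes are not highest in HI.

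The first comparison asks how the genes differed between old and young HSCs, and in CPM they showed no common direction, while per spike-in read their median was 0.25 with 0.23 over all genes. Their median difference, old (the mean of LO, MID and HI) minus young, was 0.01 (-0.10 and 0.01), against -0.00 over all genes. Higher in both tables were 19 of 75 genes (25.3%), where 28.6% of all genes were, and lower in both were 23 (30.7%), where 29.9% were. None passed 1.5-fold in both tables in either direction, where 3.43% of all genes were higher and 3.07% lower. The summed level differed by -0.02 (-0.07 and 0.03). Large and small subunit genes had medians of 0.01 and 0.05.

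Mrps27 (ENSMUSG00000041632; GRCm38 chromosome 13, 99344786 to 99415562, plus strand), a small subunit protein of the pentatricopeptide repeat family, was the gene with the lowest value in old cells. It had young sums of 57.7 and 67.4 CPM, LO sums of 35.98 and 43.9, MID sums of 51.7 and 34.1 and HI sums of 40.96 and 51.04. All 6 old sums lay below both young sums. The difference was -0.55 (-0.44 and -0.65), and -0.64 (-0.67 and -0.61) for LO against young, the 1 gene lower by 1.5-fold in both tables there and with none higher, where 4.48% of all genes were lower and 4.72% higher. Its 24.2% overlap with exons of other genes leaves some reads of unknown origin, and 1 cell gave up to 26.2% of its reads in a sum.

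Mrpl37 had young sums of 63.7 and 86.4 CPM, LO sums of 62.98 and 48.3, MID sums of 52.2 and 58.6 and HI sums of 59.5 and 48.6. Its old sums all lay below both young sums, by -0.43 (-0.13 and -0.73). Mrpl43 had young sums of 66.97 and 86.8 CPM, LO sums of 38.1 and 65.9, MID sums of 51.9 and 62.9 and HI sums of 63.5 and 69.5, so its highest old sum lay above the lower young sum. Its difference was -0.40 (-0.41 and -0.39), and 33.4% of its exon bases are shared with Twnk, the mitochondrial DNA helicase gene. The other genes at this end were Mrpl35 at -0.38, Mrps10 and Mrpl39 at -0.37, Mrps17 at -0.33 and Mrpl33 at -0.32. Of these, Mrpl35, Mrps10 and Mrps17 were at 0.00, -0.05 and -0.03 in the second table.

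Mrps11 (ENSMUSG00000030611; GRCm38 chromosome 7, 78783119 to 78792989, plus strand), a protein of the small subunit platform, near the exit of the messenger RNA, was the highest in old cells. It had young sums of 25.7 and 13.5 CPM, LO sums of 27.1 and 20.9, MID sums of 26.02 and 38.7 and HI sums of 27.2 and 43.7. The old and young sums were alike in the first table and far apart in the second, where young cells were lowest, and the difference was 0.64 (0.06 and 1.22). Mrpl46, on the other side of the shared start region, showed the same split, at 0.31 (-0.18 and 0.79). It had young sums of 51.4 and 31.6 CPM, LO sums of 57.9 and 54.2, MID sums of 38.5 and 53.3 and HI sums of 41.3 and 59.1. For both genes the young sum of the second table was the lowest of the 8, and 173 exon bases lie in both genes, 12.2% of Mrpl46.

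Mrps26 had young sums of 58.5 and 48.2 CPM, LO sums of 86.6 and 73.7, MID sums of 56.2 and 60.7 and HI sums of 69.5 and 83.7, a difference of 0.41 (0.25 and 0.57). Its MID sum lay below the young sum in the first table, so the higher level was not in every old group. Mrpl17 had young sums of 101.4 and 70.5 CPM, LO sums of 94.5 and 111.2, MID sums of 107.5 and 112.1 and HI sums of 106.7 and 143.1, at 0.40 (0.02 and 0.78). Only the second table set it apart. Mrps34 had a young sum of 18.6 CPM in each table, LO sums of 23.5 and 19.7, MID sums of 23.4 and 30.4 and HI sums of 26.6 and 24.3, a difference of 0.38 in each table and the closest match between tables at this end. All 6 of its old sums exceeded both young sums, but 63.4% of its exon bases also lie in exons of Mapk8ip3 on the opposite strand and 36.97% in exons of Nme3 on the same strand. Mrpl44, Mrps24 and Mrps28 followed at 0.30, 0.27 and 0.27, positive in both tables.

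By place in the ribosome, old minus young medians in CPM lay on either side of 0, while per spike-in read those below 0 became 0.03 for the head, 0.08 for the tunnel exit and 0.20 for the stalk. All genes had a median of 0.23 per spike-in read. The 7 proteins of the small subunit head had a median of -0.21, with 4 lower and 1 higher in both tables, and the 5 tunnel exit genes past the filter had -0.15, with 3 lower and 2 higher. The 6 genes of the central protuberance, where the large subunit meets the small, had 0.21, with 3 higher and 1 lower. The 3 stalk genes had -0.03 and none kept its sign in both tables. The 4 platform genes had 0.12. Of all genes, 28.6% were higher and 29.9% lower in both tables. With 3 to 7 genes per place, the medians and counts describe the named genes and no more.

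**Figure D3:**
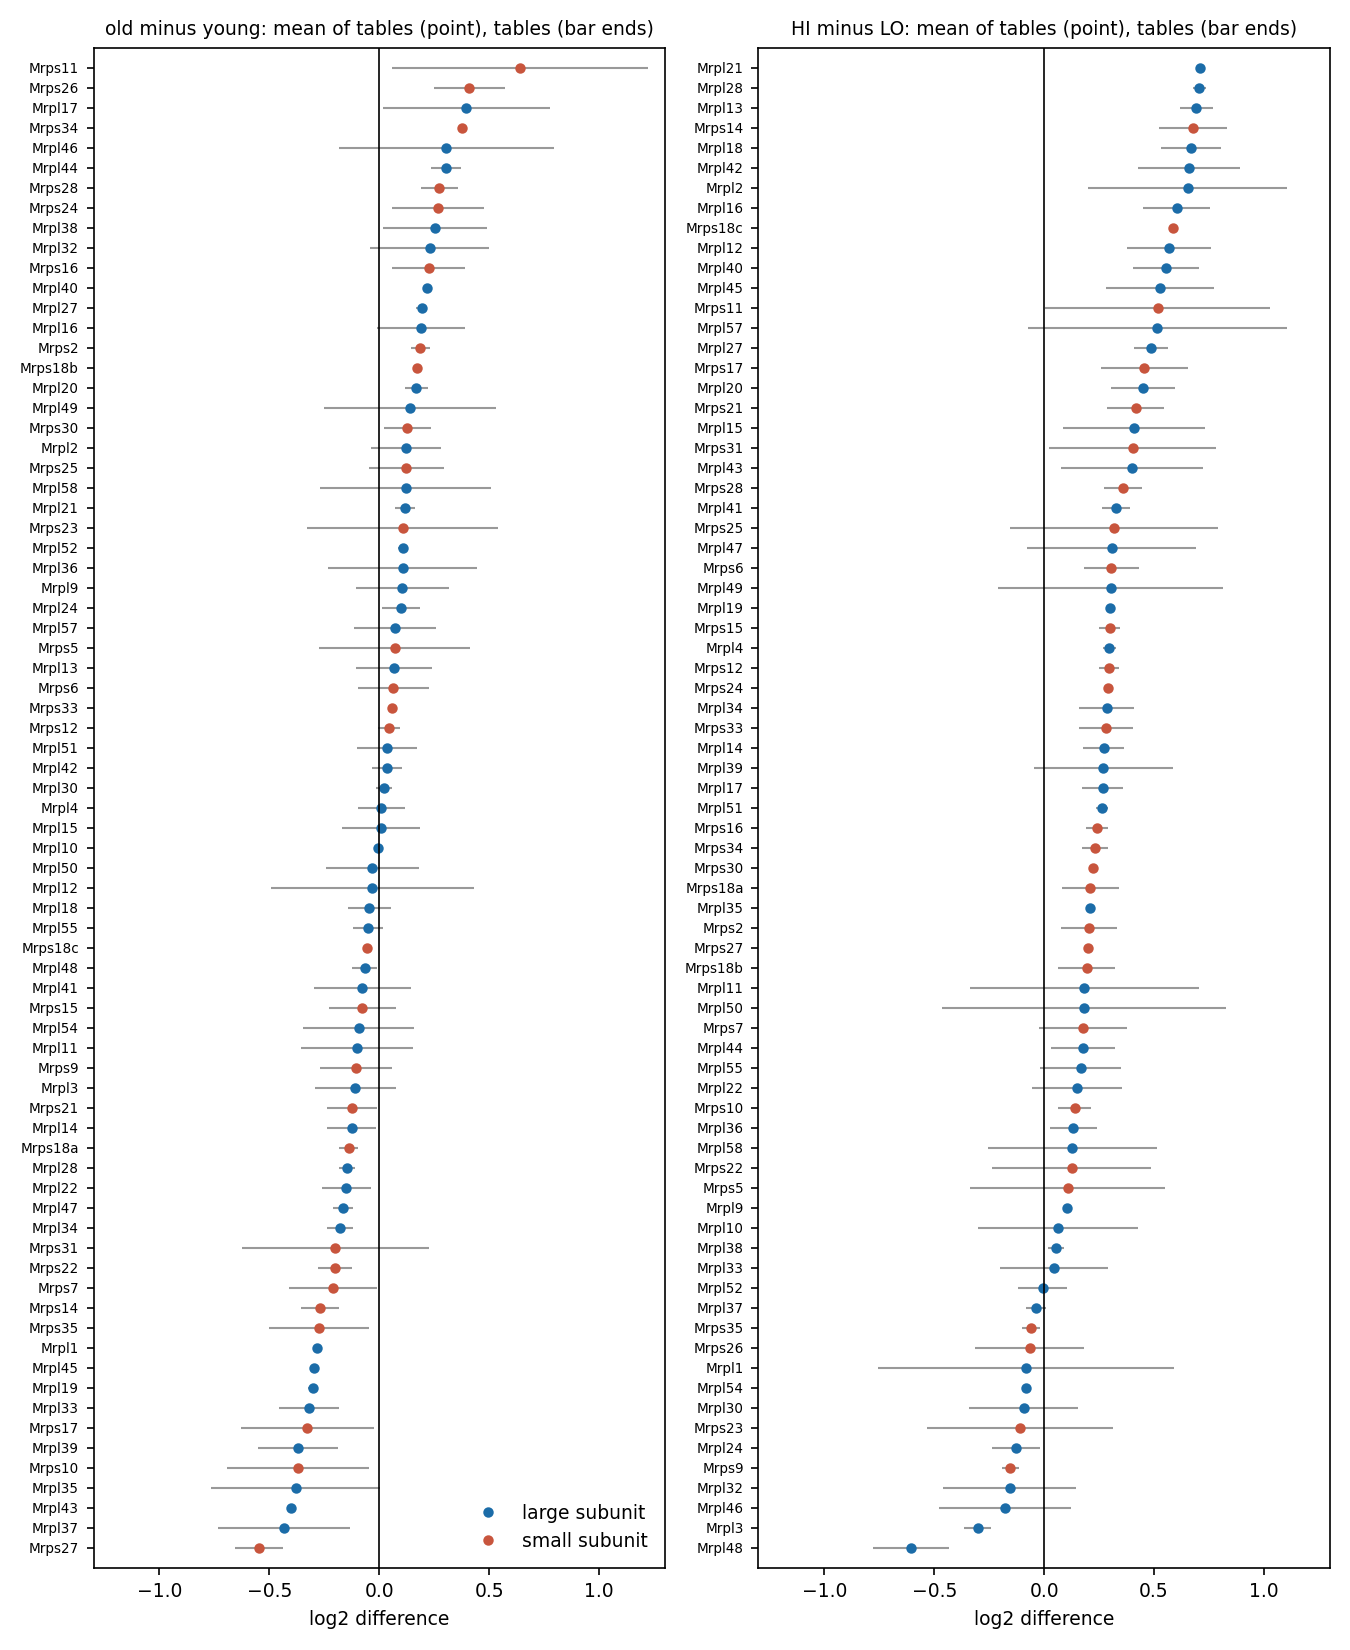
Log2 difference of each of the 75 genes past the filter, old minus young (left) and HI minus LO (right), as the mean of the tables (point) with the tables at the bar ends. The left column is spread about 0 with a median of 0.01 and the right column lies mostly above 0 with a median of 0.26.

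Among old cells, HI against LO, the genes were mostly higher in HI, by small amounts. The median was 0.26 (0.19 and 0.30) against 0.02 over all genes. Higher in both tables were 46 of 75 genes (61.3%), where 33.4% of all genes were, and lower in both were 6 (8.0%), where 28.7% were. Past 1.5-fold in both tables were 3 genes higher, Mrpl13, Mrpl21 and Mrpl28, and none lower, where 4.79% and 3.27% of all genes were. The summed level was 1.19-fold higher, a difference of 0.25 (0.16 and 0.33). Large subunit genes had a median of 0.27 with 26 of 47 higher and 4 lower in both tables, and small subunit genes 0.24 with 20 of 28 higher and 2 lower.

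**Figure D4:**
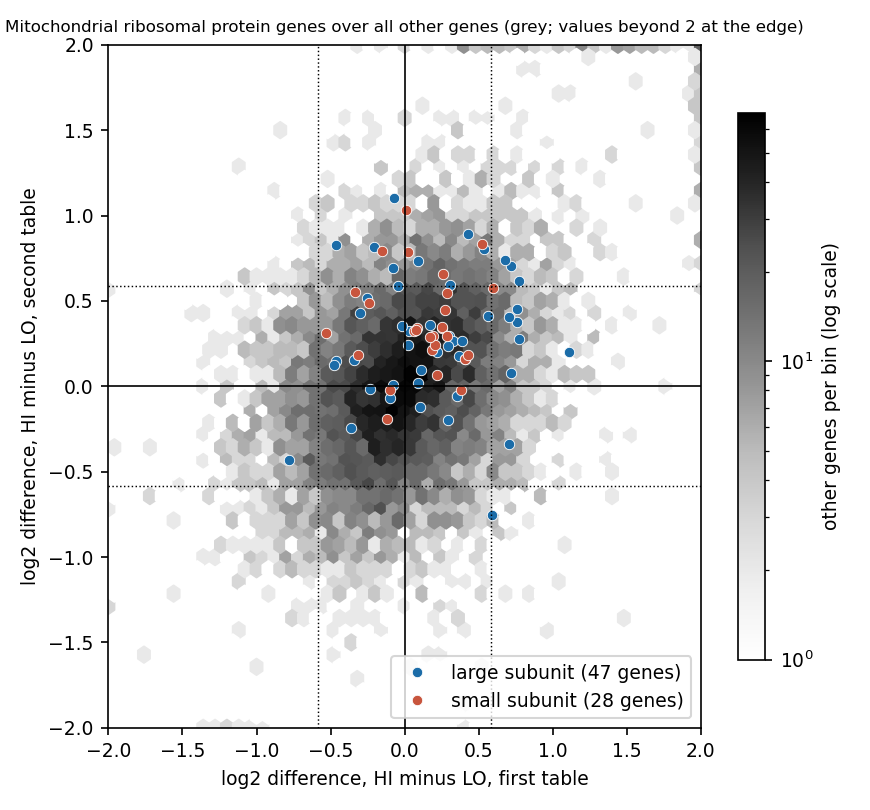
HI minus LO log2 difference in the first table (horizontal) and the second (vertical) for 47 large and 28 small subunit genes over all other genes past the filter (grey, on a log colour scale); dotted lines mark 1.5-fold, a log2 of 0.585. The coloured points lie mostly in the upper right and 3 of them lie beyond both positive lines.

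Mrpl28 (ENSMUSG00000024181; GRCm38 chromosome 17, 26123500 to 26126613, plus strand) was the most abundant of the 3 genes past the limit. It had young sums of 114.7 and 138.5 CPM, LO sums of 82.8 and 104.6, MID sums of 93.3 and 115.02 and HI sums of 132.9 and 175. LO was lowest and HI highest in each table, with young cells between them. The HI minus LO difference was 0.71 (0.68 and 0.74), on 7604 reads in HI (95% Poisson interval 7434 to 7777) and 3680 in LO cells (3562 to 3801). These intervals hold for counting error alone, because several reads can come from the same molecule. After each cell was thinned to 100000 reads, it was read in 78.9% of HI cells (95% Clopper-Pearson interval 70.6 to 85.7%) and 59.3% of LO cells (50.1 to 68.1%). Here and below, such intervals take the cells of a sample as independent. They do not hold the spread between animals and are no test between groups. Mrpl28 was also named for its difference in these same cells.

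Mrpl21 (ENSMUSG00000024829; GRCm38 chromosome 19, 3282901 to 3292837, plus strand) had young sums of 24.7 and 24.5 CPM, LO sums of 17.5 and 22.5, MID sums of 34.1 and 24.8 and HI sums of 29.3 and 37.3. LO was lowest in each table, and HI was highest in the second table alone. It differed by 0.71 (0.72 and 0.71) between HI and LO, on 1647 and 785 reads. Mrpl13 (ENSMUSG00000022370; GRCm38 chromosome 15, 55534094 to 55557748, minus strand), whose bacterial counterpart binds early in assembly, had young sums of 49.5 and 79.2 CPM, LO sums of 43.6 and 61.96, MID sums of 61.5 and 67.3 and HI sums of 75.1 and 95.6. Here too LO was lowest and HI highest within each table, and the difference was 0.69 (0.77 and 0.62). Leaving out any 1 of 10 cells took Mrpl13 under the 1.5-fold limit, at an average difference of at least 0.63, while no single cell did so for Mrpl21 or Mrpl28.

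Just outside the limit lay Mrps18c at 0.59 (0.60 and 0.58), with young sums of 16.1 and 17.2 CPM, LO sums of 12.2 and 12.4, MID sums of 16.3 and 18.6 and HI sums of 18.9 and 19.1. Its LO sums were again the lowest of each table. Mrps14, a head protein, had young sums of 97.4 and 109.5 CPM, LO sums of 69.01 and 57.6, MID sums of 91.04 and 104.6 and HI sums of 99.7 and 103.4. Both of its LO sums lay below the other 6 and its HI sums were close to the young ones, with an HI minus LO difference of 0.68 (0.52 and 0.83). Mrpl18, a protein of the central protuberance, had young sums of 69.1 and 78 CPM, LO sums of 52.9 and 60.6, MID sums of 59.8 and 81.9 and HI sums of 77.04 and 106.6, at 0.67 (0.53 and 0.81). Mrpl42 at 0.66 (0.43 and 0.89), Mrpl2 at 0.65 (1.11 and 0.20) and Mrpl16 at 0.60 (0.76 and 0.45) completed the upper end. Mrpl2, a core protein near the site of peptide bond formation, thus differed mainly in the first table.

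Mrpl48 (ENSMUSG00000030706; GRCm38 chromosome 7, 100545751 to 100608301, minus strand) ran against the rest. It had young sums of 30.3 and 32.8 CPM, LO sums of 37.2 and 36.8, MID sums of 27 and 34.8 and HI sums of 21.3 and 26.97. LO was highest and HI lowest in each table, at -0.61 (-0.78 and -0.43), on 1192 reads in HI (1125 to 1262) and 1448 in LO cells (1374 to 1525). It was read in like shares of thinned cells, 58.5% of HI (49.3 to 67.3%) and 59.3% of LO cells (50.1 to 68.1%). Mrpl48 belongs to the central protuberance, where the other genes ranged from Mrpl46 at -0.18 (-0.48 and 0.12) and Mrpl38 at 0.05 to Mrpl40 at 0.55 and Mrpl18 at 0.67.

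Per spike-in read, the median HI minus LO difference over all genes was 0.51. Mrpl3, which lies near the tunnel and the peptide bond site, was the next lowest in CPM, though higher in HI per spike-in read at 0.19. It had young sums of 75.9 and 115.9 CPM, LO sums of 103.7 and 89.3, MID sums of 61.7 and 124.8 and HI sums of 80.5 and 75.4, at -0.30 (-0.36 and -0.24), and its MID sums were the lowest and the highest of the 8. Of the remaining genes at this end, Mrps9 at -0.15 and Mrpl24 at -0.13 were lower in both tables in CPM and higher in both per spike-in read, at 0.34 and 0.36. Mrpl46 at -0.18, Mrpl32 at -0.16, Mrps23 at -0.11 and Mrpl30 at -0.09 were lower in the first table and higher in the second, and per spike-in read their averages were 0.31, 0.32, 0.38 and 0.39.

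By place in the ribosome, all 4 platform genes were higher in HI than in LO in both tables, with a median of 0.41: Mrps18c, Mrps11 at 0.52 (0.01 and 1.03), Mrps6 at 0.31 (0.43 and 0.18) and Mrps18b at 0.19 (0.07 and 0.32). The central protuberance had a median of 0.27 with 4 of 6 genes higher in both tables, where 33.4% of all genes were. The tunnel exit had 0.27 with 2 of 5, among them Mrpl45, which anchors the ribosome at the inner membrane, at 0.53 (0.77 and 0.28). The small subunit head had 0.18 with 4 of 7, and the stalk 0.18 with 1 of 3. In the stalk, Mrpl12 was at 0.57 (0.76 and 0.38), while its partner Mrpl11 was at 0.18 (0.70 and -0.34) and Mrpl10, which ties the stalk to the ribosome, at 0.06 (-0.30 and 0.43).

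Of the other genes chosen by name, most had the same sign in both tables for HI minus LO. Mrps12, at the decoding site, was at 0.30 (0.25 and 0.34) for HI minus LO and 0.04 (-0.01 and 0.09) for old minus young. Mrps21, a small protein of the small subunit, was at 0.42 (0.29 and 0.55) and -0.12 (-0.24 and -0.01). Mrps18a, whose protein sits in the large subunit despite its symbol, was at 0.21 (0.08 and 0.34) and -0.14 (-0.18 and -0.10). Mrps34 was at 0.23 (0.17 and 0.29) between HI and LO. Mrps5, at the entry of the messenger RNA channel, was the exception, at 0.11 (-0.34 and 0.55) between HI and LO and 0.07 (-0.27 and 0.41) between old and young.

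In the other pairs of groups, LO was the group with the lowest values in CPM. These comparisons share groups, so their values are set side by side and are not separate support. LO minus young had a median of -0.14, with 9 genes higher and 37 lower in both tables (a share of 49.3% lower), where 27.2% and 30.8% of all genes were. HI minus young had 0.13, with 31 higher and 12 lower, where 33.5% and 27.2% were. MID minus young had 0.04, with 20 higher and 18 lower, where 28.1% and 28.9% were. MID minus LO had 0.14 (35 higher and 10 lower, where 27.1% and 25% were), and HI minus MID 0.12 (33 higher and 7 lower, where 30.9% and 27.1% were).

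Cells with reads of cell division genes were more frequent in HI, and their part in the result was not tested. For HI minus LO, the median over 32 G2/M phase genes was 2.03, and over the 27 of 28 S phase genes past the filter it was 1.51. Among cells thinned to 100000 reads, those with a read of at least 8 of the G2/M genes made up 17.97% of young cells (95% Clopper-Pearson interval 11.7 to 25.7%), 6.504% of LO (2.85 to 12.4%), 7.87% of MID (3.84 to 14.004%) and 38.2% of HI cells (29.6 to 47.4%). Before thinning the shares were 35.8%, 13.97%, 16.4% and 48.8%. Within each group, the mitochondrial ribosomal protein genes took a larger share of reads in such cells. The mean summed level was 5002 CPM (SD 1186, 47 cells) against 3954 (SD 996, 76 cells) in HI, and 4598 (SD 388, 8 cells) against 3755 (SD 824) in the other LO cells. In young cells it was 4830.4 against 4024 and in MID cells 5085 against 4089 CPM. These are means over cells of 1 sample and carry no test.

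**Figure D5:**
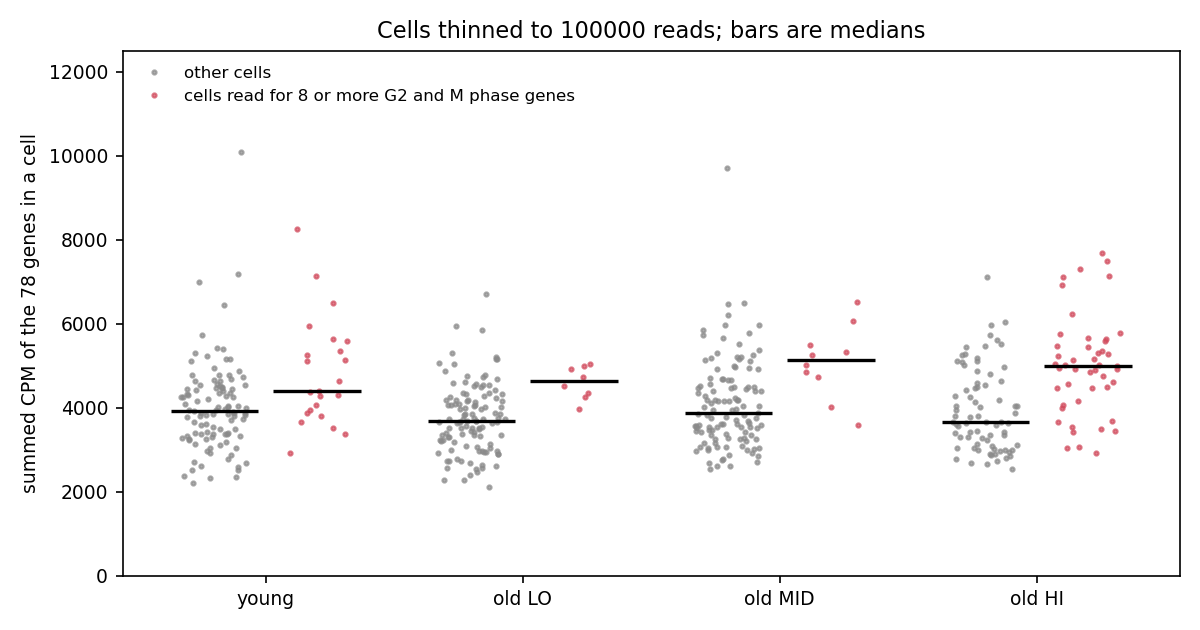
Summed CPM of the 78 genes in each of 501 cells thinned to 100000 reads, with cells that had a read of at least 8 G2/M genes in red and other cells in grey; bars are medians. The red cells lie higher in each group (medians 4990 against 3665 in HI and 4625 against 3690.0 in LO), and HI has the most of them.

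HI minus LO was smaller when cells with 8 or more of the G2/M genes before thinning were left out. Deeper cells reach 8 genes more easily, so depth and cell division genes cannot be told apart here. This left 44 HI and 57 LO cells in the first table, and only 22 HI against 60 LO cells in the second. The median over the 75 genes was then 0.20 (0.11 and 0.22), with 30 genes higher and 12 lower in both tables, where 27.3% and 25.1% of all genes were. The summed difference was 0.08 and 0.20 in the tables. Mrps6 at 0.87 (0.86 and 0.88) and Mrpl19 at 0.79 (0.69 and 0.88) were then higher, and Mrpl48 and Mrpl46 lower, by 1.5-fold in both tables. The share of all genes past 1.5-fold was not computed for these cells, so these calls do not set the genes apart from others. The 3 genes named above no longer passed: Mrpl28 was at 0.33 (0.40 and 0.26), Mrpl13 at 0.27 (0.54 and 0.01) and Mrpl21 at -0.01 (0.67 and -0.68). Mrps14 was at 0.59 (0.69 and 0.49), Mrps18c at 0.75 (0.27 and 1.23), Mrpl48 at -1.06 (-0.93 and -1.19) and Mrpl46 at -0.67 (-0.74 and -0.61). The share of cells with markers of another cell type, 3 or more genes of a list, was 11.2% of young, 26.9% of MID and 37.2% of HI cells, and LO had 34 such cells among its 65 and 71. These cells were counted before thinning, where deeper cells reach 3 genes more easily, and the count does not show that they are of another type. Kept HI cells were also deeper, at a median of 340529 nuclear reads against 257238 in LO, and with each cell thinned to the same depth the median was 0.20 with 39 genes higher and 6 lower in both tables, where 31.2% and 28.7% of all genes were. Without the cells with markers of another type the median was 0.31 (0.17 and 0.39), with 42 genes higher and 8 lower in both tables, where 33.3% and 26.5% were. Markers of HSCs themselves also moved with HI against LO: of the 10, 8 were lower and 1 higher in both tables in CPM with a median of -0.19, while per spike-in read 7 were higher and 1 lower with a median of 0.30. They summed to 3907 and 4036 CPM in LO and 3524 and 3172 in HI, and their part in the result was not tested. Of all genes, 33.4% were higher and 28.7% lower in both tables in CPM, and 73.5% and 4.82% per spike-in read, with a median of 0.51 on that scale.

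HI cells also held more reads for each read of spike-in RNA, which is added to the wells before sequencing and whose amount per well is not given in the sources used here. The summed genes stood at 20.6 and 18.6 reads per 100 spike-in reads for young cells, 19.5 and 17.9 for LO, 19.4 and 21.4 for MID, and 29.3 and 33.3 for HI. On this scale the median HI minus LO was 0.74 over the genes and 0.51 over all genes, and the median old minus young was 0.25 and 0.23. Higher in both tables were 69 of 75 genes in HI (all genes 73.5%) and 43 in old cells (all genes 54.3%). The CPM differences are thus relative to the other genes: per spike-in read, Mrpl3 was higher in HI at 0.19 (0.06 and 0.32), and Mrpl48 alone had a negative average, at -0.13 (-0.37 and 0.11). Mrps27 stayed lower in old cells at -0.31 (-0.26 and -0.35). All nuclear reads moved with them, at 50.9 and 47.4 per spike-in read in LO and 68.1 and 72.6 in HI cells. Reads per spike-in read do not tell a larger cell from a more active one.

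More of the genes were read per cell in HI, though the number of all genes read per thinned cell was not computed. Whether other genes were also read in more cells is therefore not shown. A thinned cell had reads in a median of 40 of the 78 genes for young, 41 for LO, 41 for MID and 49 for HI. In HI it was 61 in the cells with 8 or more G2/M genes and 43 in the others, and in LO 56.5 and 40. Across thinned cells of a group and table, the summed reads of large and of small subunit genes had Pearson's r of 0.43 and 0.48 for young, -0.00 and 0.17 for LO, 0.50 and 0.30 for MID, and 0.59 and 0.24 for HI, over 57 to 69 cells. These are descriptions across cells that share a library preparation and depth.

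Genes that work with the mitochondrial ribosome did not all go with it in CPM. The medians below 0 among their lists (assembly, DNA and RNA maintenance, regulators) were 0.46, 0.43 and 0.47 per spike-in read. Over all genes the median on that scale was 0.51, so these lists stayed under it. The 5 proteins of the ribosome that carry other symbols had a median HI minus LO difference of 0.14, with 3 higher in both tables and none lower. Of all genes, 33.4% were higher and 28.7% lower in both tables. Among them Dap3, a GTP-binding protein of the small subunit, was at 0.24 (0.38 and 0.10) and Ptcd3 at 0.58 (1.04 and 0.12). Of 24 assembly genes past the filter, 4 were higher and 5 lower in both tables with a median of -0.03, and these included Mrm3, which methylates the large ribosomal RNA, at 1.12 (1.15 and 1.09), and Gtpbp10, an assembly GTPase, at -1.46 (-1.07 and -1.85). Of 11 translation factor genes, 5 were higher and 3 lower in both tables, with a median of 0.27 and medians within each table of 0.03 and 0.04. Tsfm, the elongation factor that reloads Tufm, was at 0.59 (0.41 and 0.77), and Guf1 at -0.34 (-0.20 and -0.47).

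The 15 import, chaperone and outer membrane genes had a median of 0.26, with 9 higher and 1 lower in both tables, and Tomm40, the import pore, was at 0.72 (0.52 and 0.92). The 16 genes that maintain and express mitochondrial DNA had -0.04, with 1 higher and 5 lower. The 10 regulators had -0.01, with 1 higher and 3 lower, and Myc was at 0.45 (0.93 and -0.02). The 68 cytosolic ribosomal protein genes past the filter had 0.01, with 25 higher and 16 lower in both tables. Beside each of these lists, the shares over all genes were 33.4% higher and 28.7% lower. Per spike-in read, all genes had a median HI minus LO difference of 0.51. The ribosomal RNAs of mitochondrial DNA were lower in HI per nuclear read but higher per spike-in read, by 0.28 for each of mt-Rnr1 and mt-Rnr2. In CPM they stood at 1257 and 1148 for mt-Rnr1 in LO against 1041 and 1022 in HI, and 15049 and 15524 for mt-Rnr2 against 13175 and 13162. All of these lists were chosen with earlier results of the data known.

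For old minus young, the list medians in CPM lay on either side of 0. Per spike-in read they were above 0, from 0.03 for translation factors to 0.38 for regulators, with none computed for the cytosolic list. The median over all genes was 0.23 on that scale. Of all genes, 28.6% were higher and 29.9% lower in both tables in CPM. The proteins of the ribosome with other symbols had a median of -0.08 with none higher and 3 of 5 lower in both tables. Translation factors had a median of -0.20 with 1 higher and 5 lower in both tables. Assembly genes had -0.12 with 7 higher and 8 lower, and DNA and RNA maintenance -0.11 with 4 higher and 5 lower. The shares of assembly genes (29.2% and 33.3%) and of maintenance genes (25% and 31.25%) lay near those of all genes. Regulators had 0.15 with 5 higher and 1 lower, and import and chaperone genes 0.08 with 7 higher and 1 lower. Cytosolic ribosomal protein genes had 0.02 with 24 higher and 18 lower.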

How the data were processed

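The values are whole-number counts of reads for each gene and cell, deposited by the authors in 2 tables and carrying no molecular identifiers. Per the submitters' processing notes, the tools included featureCounts 2.0.0, Subread, STAR 2.7.3a and DESeq2 on the mm10 build, with no role for each. Ambiguous reads, kept apart, were 3.80% and 4.26%. Cells were kept with 50000 or more nuclear gene reads, 1000 or more nuclear genes read and at most 20% mitochondrial reads. Cells had been sorted singly, so doublets were not called, and none were clustered; no 2 cells were identical. Counts were summed per group and table, as CPM with TMM factors over the 8 sums (edgeR 4.0.16, R 4.3.3), and compared as log2(CPM + 1) within each table. Other steps used Python 3.11.15 with pandas 2.3.3, NumPy 2.4.6, matplotlib 3.10.9 and SciPy 1.17.1, and were tested on simulated data. Annotation was GENCODE M21 on GRCm38. The length of a gene is that of its principal coding transcript. Kept cells with 100000 or more nuclear reads (501) were thinned to that number.

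Named genes are the 8 highest and 8 lowest in each main comparison, the 5 highest and 5 lowest levels per kilobase, and 10 fixed by name. Members and lists were chosen with earlier results of these data known. Alternatives were DESeq2 1.42.0 size factors, no composition factors, pseudocounts of 0.1 and 10 CPM, no or a stricter level filter (50 CPM, 25% of cells), cell means, thinned cells, leaving out cells by markers, and each table alone.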

Additional observations from a re-analysis of the deposited data

How the results depend on the processing

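The labels name no animal, so the spread between animals of a group could not be measured, although the Xist reads show that young cells of the tables differ in sex. Small sums limit genes near 10 CPM. No paired analysis was possible because the labels name no animal and no test was run. The median HI minus LO was 0.19 to 0.74 and the median old minus young -0.10 to 0.25 over 15 alternatives each. No 1 cell moved the medians beyond 0.23 to 0.27 and -0.01 to 0.03, though the sign changed for 9 and 11 genes when 1 cell was left out.

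Scaling to spike-in reads, chosen after seeing the data, moved the median of all genes to 0.51 and 0.23 and gave medians of 0.74 for HI minus LO and 0.25 for old minus young, and sums of 0.74 and 0.22. The first table alone gave a median of -0.10 for old minus young. With 1 table in place of both, more genes pass by construction: of old against young, 32 (first) and 39 (second) genes were higher, 3 in each table were lower by 1.5-fold, and 3 were higher by 1.5-fold in the second. Of HI against LO, 12 and 16 were higher by 1.5-fold and 1 was lower in each table. No share over all genes is given here for a single table or for the counts that follow. They therefore do not tell a change of these genes from a change of all genes. The stricter filter left 41 of the genes in place of 75, with 25 higher in HI and 9 in old cells in both tables. Genes higher by 1.5-fold in HI, 3 in the fit described above, were 1 with a pseudocount of 10, 0 with cell means and 6 without the LO cell numbered 58. Genes lower by 1.5-fold in HI were 1 with cell means, 1 with thinned cells and 2 without cells that had 8 or more G2/M genes, where 30 were higher in both tables. Without cells with markers of another type, 1 gene was lower by 1.5-fold in old cells. The causes of these last changes were not tested. Leaving out genes that share over 10% of their exon bases with another gene, also chosen after seeing the data, was tried for the median differences alone. It moved them by less than 1 SD of the values of the tables. The other alternatives gave counts within 1.5 times those reported and moved the median and summed differences by less than 1 SD.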
